A study of Arabidopsis thaliana with 9 samples.

Results

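The 60 probe sets described here gave little signal in control plants of Arabidopsis thaliana and a higher one in at least 1 of 2 mutant lines. They were drawn from 22746 probe sets of the Affymetrix ATH1 array, a chip of short oligonucleotide probes on which several probes together read 1 transcript. Of these, 9713 had all 3 control signals at or below 30 intensity units and were eligible. The score of a probe set was the log2 of the lowest signal of a mutant line minus the log2 of the highest control signal, each after adding 5, taken for whichever line gave more. The 60 highest scores were kept, after 3 probe sets and 4 loci had been set aside by the rule. Scores ran from 1.30 to 0.580. The members were thus chosen by their signals on all 9 arrays, so their height over the control describes the choice and was not tested.

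Total RNA came from whole plants at growth stage 1.04, aged 17 days, kept at 21 C under a cycle of 16 h light and 8 h darkness and sown at 25 seeds per plate. Line 348 and line 409 are labelled as T-DNA insertion knock-outs, and no label names the disrupted gene of either. C2S1 served as the control, and its titles say wild type while its genetic variation label also reads knock-out. Each line was measured on 3 arrays. In the titles, line 348 carries the numbers 1, 1 and 3, so replicate numbers here follow the order of the samples. The labels leave it unsaid whether replicates were separate plants or plates, so any spread given may be technical. Replicate arrays of a line correlated at 0.963 to 0.985 across the 14199 brighter probe sets. LHCB4.1, a leaf antenna gene, had signals of 4480 to 5562 over the 9 arrays, and PYK10, a root glucosidase gene, had 2340 to 3641, so both leaf and root RNA were present.

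The series title speaks of epigenetic mutants. In plants, transposons, their remnants and some genes are kept silent by DNA methylation and repressive histone marks, above all around the centromeres. When such silencing is lost, transcripts that are undetectable in the parent line can appear, and in Arabidopsis transposon-derived loci, which gene tables may list as pseudogenes, are well known among them. A set of probe sets dark in the control and brighter in the mutants is where such a release would be looked for on an array. The results below therefore follow the line, the level, the gene class and the position of the members.

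Most members were near the floor of the array in the mutants too. Of the 60, 45 had a highest control signal of 5 units or less, and the median of that highest control signal was 2.12. The median over members of the lowest signal in the line that gave the score was 7.45. On the 9 arrays the 40th percentile of all probe sets lay at 20.6 to 23.9 units and the array median at 36.9 to 40.3. No member lay above the array median on all 3 arrays of the line that gave its score, and 57 lay above it on no array at all. Above the 40th percentile, 5 members stood on all 3 arrays of their line, and 49 stood on none of the 9. All 9 signals of 55 members were at or below 30 units, the ceiling that had been set for the control.

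A9, a gene of the anther tapetum, was the 1 flower gene of the tissue markers with a named probe set. A9 had signals of 0.452, 2.29 and 5.56 in line 348, of 1.36, 8.82 and 2.01 in line 409, and of 9.65, 1.08 and 1.27 in the control. Its 3 groups overlapped. For A9, arrays of 1 line thus differed by several units.

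**Figure D1:**
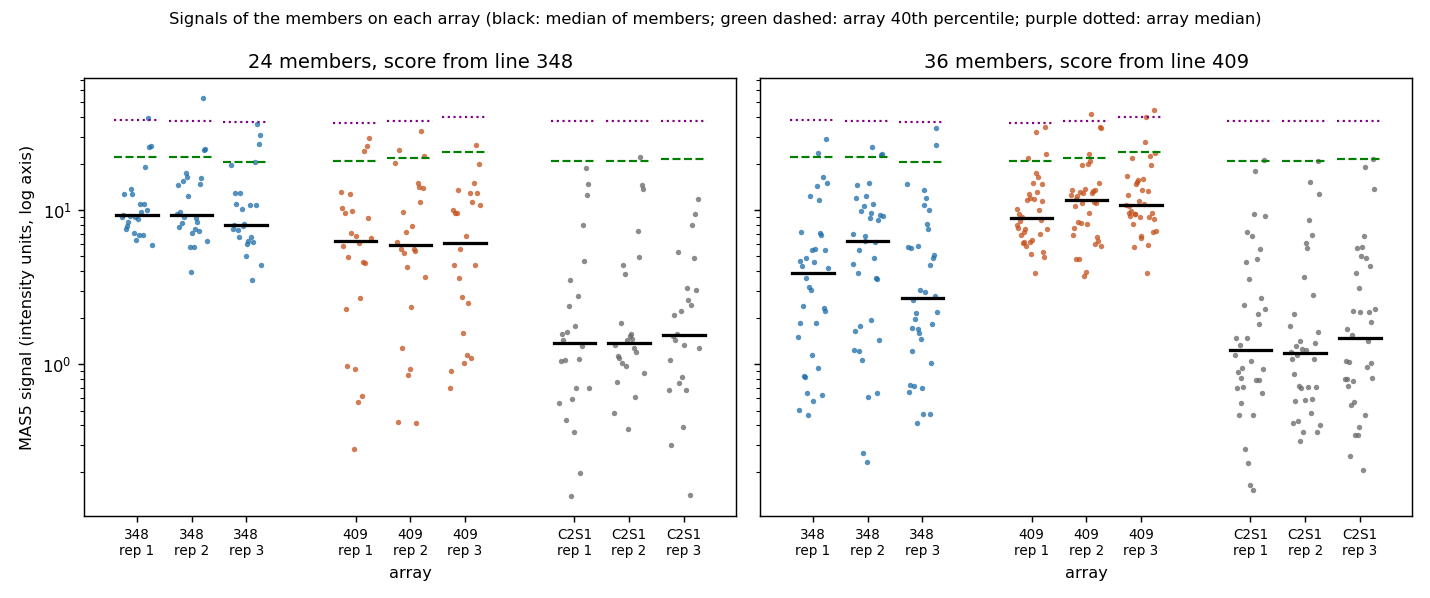
MAS5 signal in intensity units (log axis) of each member on each of the 9 arrays, for the 24 members scored by line 348 (left) and the 36 scored by line 409 (right). Points are members, black bars their medians, green dashes the array's 40th percentile and purple dots the array median. Nearly all points lie under the green dashes in the mutant lines as in the control.

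Line 409 gave the score of 36 members and line 348 that of 24. This split moved when an array was left out. Line 409 gave the score of 20, 18 and 15 members without replicates 1, 2 and 3 of line 348, and of 53 or 54 without an array of its own. By construction, the lowest signal of a line can only rise or stay when 1 of its arrays is dropped. The split is thus bound to shift toward that line, and no dependence on a particular array is read from it. For the 24 scored by line 348, the median over members of each member's middle signal among 3 arrays was 8.98 units in line 348, 6.05 in line 409 and 1.37 in the control. For the 36 scored by line 409 it was 4.35 in line 348, 9.83 in line 409 and 1.11 in the control. The line that did not give the score therefore lay between the other line and the control in both sets. Among all 9713 eligible probe sets, the median signal per array was 6.06, 5.94 and 5.01 for line 348. Line 409 had 5.70, 6.16 and 7.14, and the control 5.25, 5.57 and 5.24. Taken per array in the same way, the 24 members scored by line 348 had medians of 6.33, 5.92 and 6.16 in line 409. The 36 scored by line 409 had 3.91, 6.26 and 2.70 in line 348. The first lay above the eligible median on replicate 1 only, and the second on replicate 2 only. In the control, the members' medians per array were 1.37 to 1.55 for the 24 and 1.18 to 1.48 for the 36. These lay well under the eligible medians of the control. No partial rise is read from the middle position. Both lines are set against the same 3 control arrays, so a low control value raises both at once. Within the line that gave the score, the highest array was 1.09 to 3.74 times the lowest, with a median of 1.58, and it was more than 2 times in 12 members. In line 409 the lowest of the 3 signals was on replicate 1 for 19 of its 36 members, on replicate 2 for 12 and on replicate 3 for 5. In line 348 it was on replicate 3 for 11 of 24, on replicate 2 for 8 and on replicate 1 for 5.

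AT4G36700, a protein-coding locus, had the highest score of all, 1.30. Its signals were 9.01, 9.48 and 19.6 in line 348, then 13.2, 20.3 and 0.700 in line 409, and 0.562, 0.485 and 0.681 in the control. Line 348 lay clear of the control on every array, while replicate 3 of line 409 stood just above the highest control. The unnamed probe set 256176_at had the same shape, with 9.31, 14.6 and 7.52 in line 348, 10.3, 6.21 and 0.900 in line 409, and 1.05, 1.33 and 1.07 in the control. There, line 409 replicate 3 lay below the control.

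AT5G55360 had signals of 8.37, 15.4 and 7.39 in line 348, of 0.979, 1.27 and 9.51 in line 409, and of 0.436, 1.86 and 1.44 in the control. Here it was 2 arrays of line 409 that stayed within the control range. AT3G61410 had 13.8, 17.3 and 12.8 in line 348, 12.7, 5.28 and 3.61 in line 409, and 2.37, 4.42 and 5.34 in the control. AT1G10300 had 6.94, 5.73 and 6.32 in line 348, 0.572, 7.95 and 1.15 in line 409, and 0.702, 1.58 and 0.676 in the control. In each of these loci line 409 had at least 1 array within or below the control range and at least 1 above it.

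AT3G21000 and AT3G60920 had a signal in line 348 with line 409 low on every array, as did LCR24, described below. AT3G21000 had 9.00, 5.74 and 8.08 in line 348, 0.280, 0.851 and 1.59 in line 409, and 0.597, 1.43 and 0.827 in the control. AT3G60920 had 6.44, 3.98 and 5.04 in line 348, 0.929, 0.931 and 1.02 in line 409, and 0.360, 0.381 and 0.391 in the control. Line 409 overlapped the control for AT3G21000 and lay just above it for AT3G60920. The unnamed 254059_at had 7.91, 8.24 and 10.9 in line 348, 2.26, 5.60 and 9.64 in line 409, and 1.06, 1.09 and 2.08 in the control, and 258785_at had 7.06, 12.3 and 7.92, then 9.91, 4.28 and 2.73, and in the control 0.140, 0.971 and 2.21. In these 2 the arrays of line 409 spread from just above the control to the level of line 348.

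Probe set 258586_s_at is assigned to both AT3G04330 and AT3G04320, so its signal cannot be given to either gene. It had 12.6, 16.5 and 10.1 units in line 348, 7.08, 7.19 and 5.56 in line 409, and 3.49, 3.86 and 0.754 in the control. The 3 groups did not overlap, in the order line 348, line 409, control.

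Among the members scored by line 409, AT1G48180 stood first, with a score of 1.16. Its signals were 1.51, 6.98 and 14.7 in line 348, 10.2, 12.6 and 10.8 in line 409, and 1.14, 1.76 and 0.804 in the control. The 3 arrays of line 409 were close together, whereas those of line 348 ran from the control level to above line 409. The unnamed 266282_at had 0.506, 4.44 and 5.75 in line 348, 8.01, 13.5 and 16.7 in line 409, and 1.48, 1.2 and 1.05 in the control. The unnamed 247515_at had 4.33, 14.5 and 1.21 in line 348, 6.86, 11.9 and 9.21 in line 409, and 1.32, 0.865 and 1.03 in the control. In both, at least 1 array of line 348 lay within or below the control values.

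A group of loci was raised in line 409 with line 348 close to the control on all arrays. AT1G24140 had 1.85, 1.24 and 0.658 units in line 348, 7.64, 6.90 and 12.6 in line 409, and 0.699, 1.09 and 0.802 in the control. AT5G41640 had 0.828, 1.21 and 0.720 in line 348, 6.21, 8.33 and 8.11 in line 409, and 0.950, 1.15 and 1.56 in the control. Line 409 lay clear of both other groups in each case. The unnamed 262535_at had 0.648, 1.07 and 0.416 in line 348, 5.82, 8.21 and 9.39 in line 409, and 0.283, 1.42 and 0.568 in the control. The unnamed 263395_at had 4.64, 1.63 and 0.734 in line 348, 9.42, 7.66 and 9.52 in line 409, and 0.890, 0.416 and 1.69 in the control, so that 1 array of line 348 left the control range.

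AT1G67635 and the unnamed 255861_at and 247759_at each had 1 control array that stood above the others. AT1G67635 had 0.469, 0.265 and 5.82 in line 348, 11.7, 11.2 and 14.8 in line 409, and 4.61, 0.316 and 0.346 in the control. Probe set 255861_at had 3.15, 10.7 and 1.70 in line 348, 21.8, 19.5 and 15.3 in line 409, and 7.23, 0.697 and 3.89 in the control. Probe set 247759_at had 12.3, 6.29 and 1.60 in line 348, 12.8, 13.0 and 15.6 in line 409, and 1.48, 1.25 and 5.71 in the control. For 247759_at, line 348 ran from the control range to just under line 409.

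AT4G17860 and AT5G59760 showed a wide spread in line 348. AT4G17860 had 4.90, 9.88 and 2.14 in line 348, 7.56, 13.0 and 9.44 in line 409, and 2.42, 0.720 and 2.23 in the control. AT5G59760 had 0.833, 5.54 and 2.63 in line 348, 6.08, 12.3 and 21.7 in line 409, and 0.815, 1.32 and 0.546 in the control. For both loci line 348 overlapped the control on 1 array, and for AT5G59760 the arrays of line 409 differed widely among themselves.

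Some members lay above every control array on all arrays of both lines, and the 10 of them with the highest scores include AT4G36700, AT3G60920, 254059_at, 258785_at and 258586_s_at, described above. AT2G01810 had 7.59, 9.65 and 12.9 in line 348, 9.53, 24.5 and 4.40 in line 409, and 1.44, 1.12 and 1.52 in the control. Probe set 250173_at had 9.18, 9.04 and 6.69 in line 348, 5.00, 9.71 and 13.5 in line 409, and 1.62, 1.02 and 1.57 in the control. In both the 2 mutant lines overlapped each other and left the control below. AT5G03980 had 2.37, 3.93 and 1.72 in line 348, 9.08, 4.80 and 9.89 in line 409, and 0.556, 0.580 and 0.253 in the control. Probe set 260253_at had 3.62, 1.76 and 1.96 in line 348, 7.26, 4.84 and 5.74 in line 409, and 0.708, 0.427 and 0.779 in the control. These 2 were ordered line 409, line 348, control, without overlap.

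IAA33 completes those 10 and is also 1 of only 4 members with a gene symbol of its own. It belongs to the Aux/IAA family, repressors of auxin-responsive transcription. Its signals were 7.17, 12 and 5.66 in line 348, 8.44, 10.6 and 10.7 in line 409, and 0.464, 2.12 and 0.726 in the control. On the log2 scale its difference from the control was 1.11 in line 348 and 1.30 in line 409, each with an SE of 0.257. The rule chose IAA33 by its height over the control, so these differences describe the choice. Neither passed at an adjusted p under 0.05 in the linear model given below. The arrays of line 409 lay inside the range of line 348, and both lines lay above all 3 control arrays.

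The 3 other members with a symbol were scored by line 348. RALFL18 encodes a peptide of the family of rapid alkalinization factors, small secreted signals. It had 8.72, 7.11 and 6.06 units in line 348, 6.75, 2.36 and 6.76 in line 409, and 1.76, 1.52 and 1.33 in the control. Both lines were above the control, and they overlapped each other. ATSPO11-1 encodes a topoisomerase-like protein that makes the DNA breaks of meiotic recombination. It had 11, 7.58 and 10.8 in line 348, 6.10, 5.63 and 2.48 in line 409, and 2.78, 1.46 and 3.14 in the control, with line 409 partly in the control range. LCR24 encodes a small cysteine-rich protein related to defensins. It had 6.87, 8.43 and 3.53 in line 348, 0.617, 0.413 and 1.1 in line 409, and 0.196, 0.614 and 0.142 in the control, so that line 348 stood apart from both.

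**Figure D2:**
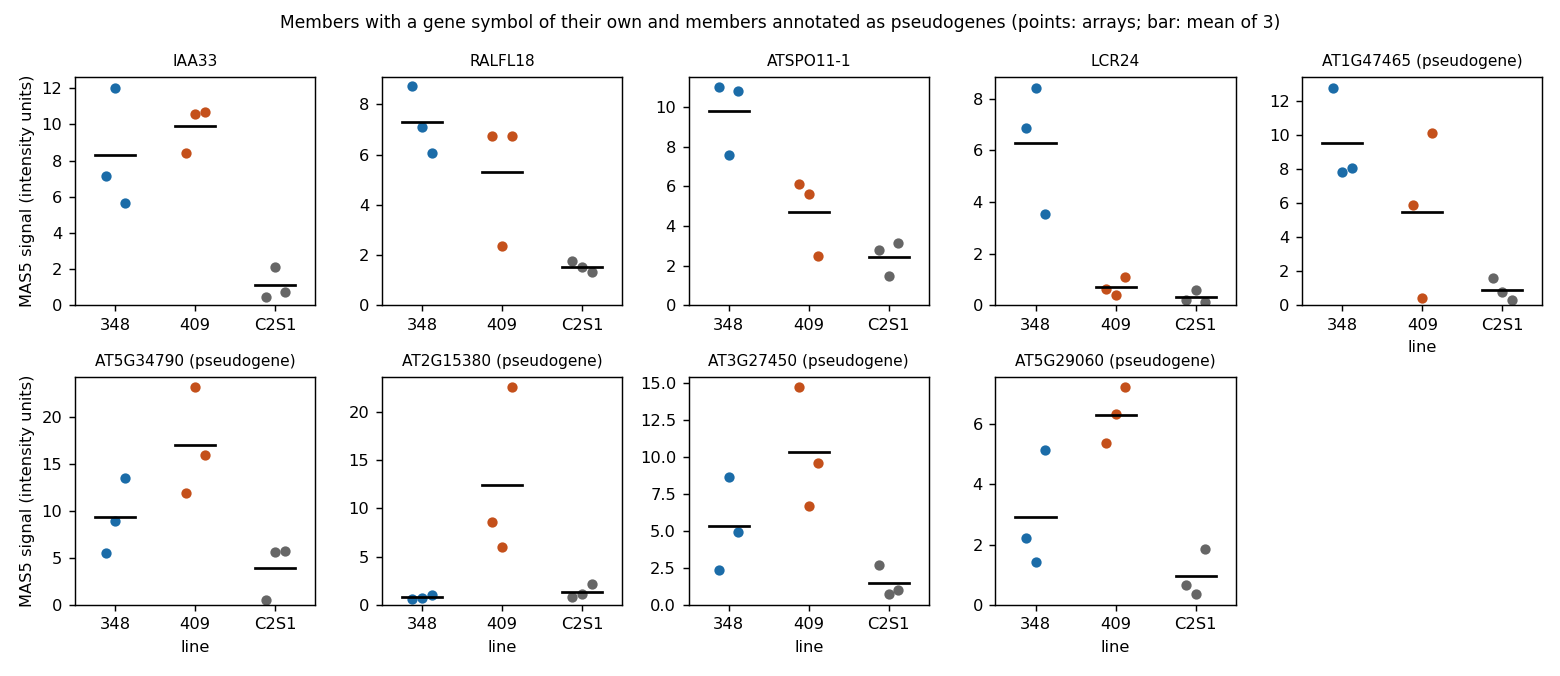
MAS5 signal in intensity units (linear axis from 0) of the 4 members with a gene symbol and the 5 annotated as pseudogenes, with 3 arrays per line as points and their mean as a bar. LCR24 is highest in line 348 and AT2G15380 in line 409, while IAA33 is above the control in both lines.

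Of the 60 members, 5 are annotated as pseudogenes, 33 as protein-coding genes, 1 probe set has several genes and 21 have no gene in the table used. AT1G47465 was the only pseudogene scored by line 348, with 12.8, 7.82 and 8.04 units there, 5.89, 0.424 and 10.1 in line 409, and 1.58, 0.767 and 0.297 in the control. Line 409 ran from the control level to the level of line 348. The other 4 were scored by line 409.

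AT2G15380 had 0.634, 0.654 and 1.01 units in line 348, 8.63, 6.03 and 22.5 in line 409, and 0.794, 1.08 and 2.20 in the control. It was raised on all arrays of line 409 and on none of line 348, and replicate 3 of line 409 was well above the other 2. AT5G34790 had 5.55, 8.91 and 13.6 in line 348, 11.9, 23.2 and 15.9 in line 409, and 0.466, 5.68 and 5.74 in the control. AT5G29060 had 2.20, 1.43 and 5.13 in line 348, 5.37, 6.34 and 7.24 in line 409, and 0.651, 0.364 and 1.87 in the control. In both of these line 348 spread from the control range to the lower values of line 409 or just under them. AT3G27450 is annotated as a transcribed pseudogene and had 2.32, 8.66 and 4.90 in line 348, 14.7, 6.65 and 9.60 in line 409, and 2.68, 0.709 and 1.02 in the control.

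Gene class and position were not part of the choice and could be set beside wider sets. Pseudogenes made up 8.33% of the members, 10.0% of the 9713 probe sets dim in the control and 4.35% of all 22746. The count of 5 pseudogenes moved to 3 without line 348 replicate 3 or line 409 replicate 1, to 13 without line 409 replicate 2, and to 8 without control replicate 1 or 3, so no difference from the dim set, nor a likeness to it, is read from this share. Probe sets with no named gene made up 35.0% of the members, 29.9% of the dim set and 38.4% of all. Of the 38 members with 1 gene in the RefSeq table, 10.5% had a symbol of their own, against 8.09% in the dim set and 11.5% overall. Only 2 members, 258586_s_at and 259455_x_at, carry the suffixes of probe sets whose probes can match several transcripts, and the plain suffix made up 96.7% of the members, against 93.8% of the dim set. Probe set 259455_x_at is assigned to AT1G44030.

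The 38 placed members lay on all 5 nuclear chromosomes. Chromosome 3 held 12, chromosome 5 held 10, chromosome 1 held 8, and chromosomes 2 and 4 held 4 each. Chromosome 3 thus had 31.6% of the members, against 20.2% of the dim set. Of the members scored by line 409, 8 of 21 lay on chromosome 5, against 2 of 17 of those scored by line 348 and 20.85% of the dim set. These counts are small, so no difference between the lines is read from them. Among the 38 placed members, no 2 were close neighbours. The nearest pair, AT3G60920 and AT3G61410, had 80 annotated genes between them, and both were scored by line 348. Members with no gene named, and the 1 with several genes, were not placed, so pairs with them could not be looked for. In Arabidopsis, remnants of transposons are dense around the centromeres, so pseudogenes were counted among the neighbours of each locus. Among the 50 annotated genes on each side, pseudogenes were a median of 4.50% for the members and 4.62% for the dim set. They were at least 50% for 2 of 38 members, or 5.26%, against 10.0% of the dim set and 5.49% of all.

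Those 2 members were the pseudogenes AT5G34790 and AT5G29060 on chromosome 5, with 84% and 81% pseudogenes among their neighbours. Both were scored by line 409, and none of the 33 protein-coding members had such a neighbourhood, against 3.27% of the protein-coding loci of the dim set. With 33 loci and so small a share, no difference is read from this. Next came AT1G44030 with 38%, AT3G44140 with 29% and the pseudogene AT2G15380 with 25%. Most placed members thus had few pseudogenes among their neighbours, as the dim set did, with medians of 4.50% and 4.62%.

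**Figure D3:**
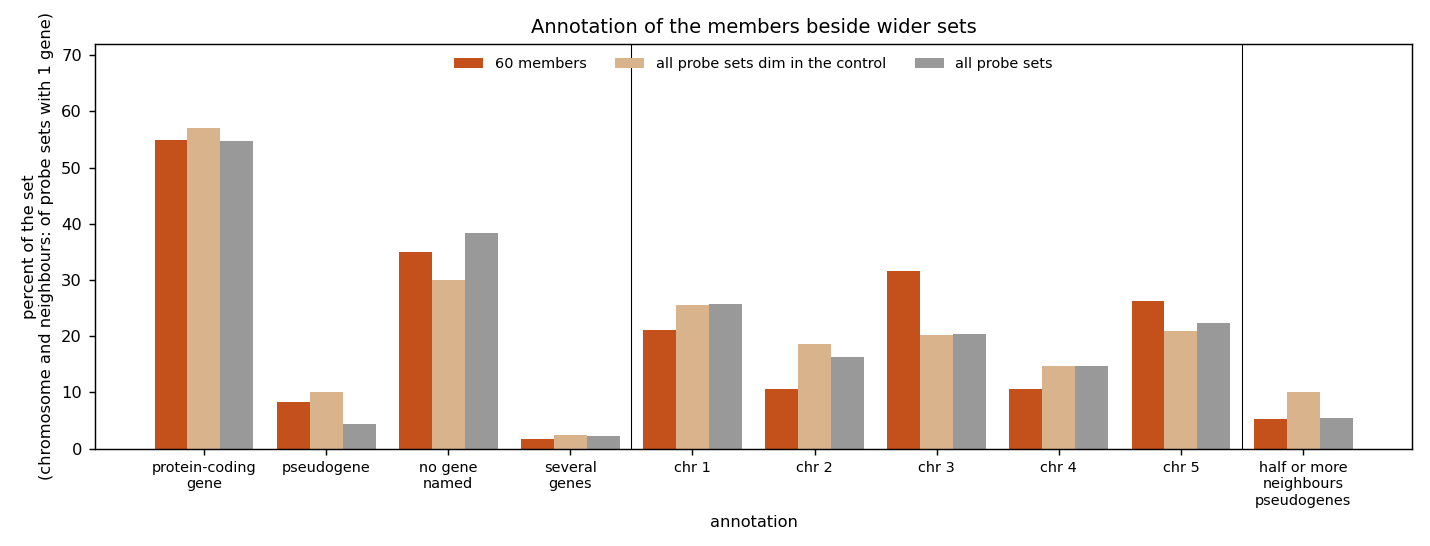
Share of the 60 members, of the 9713 probe sets dim in the control and of all 22746 probe sets by gene class (left), and, of the probe sets with 1 gene, by chromosome and by a neighbourhood of at least 50% pseudogenes. The bars for pseudogenes stand at 8.33% of the members and 10.0% of the dim set, and chromosome 3 has the widest gap.

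None of the 14 loci listed as controlled by DNA methylation or imprinting was found by name among the members. Of these, 2 had a named probe set, QQS and MPC, and neither was dim in the control, so the list says little here. The other loci could not be looked up, and 21 members have no gene named, so whether any of them is a member stays unknown. QQS, an orphan gene tied to starch content, had 173, 227 and 191 units in line 348, 266, 211 and 220 in line 409, and 152, 199 and 168 in the control. None of the 6 genes of the silencing machinery and none of the 3 heat shock genes had a named probe set. Of the 12 low-oxygen genes and the 7 defence genes, 1 each had one, HRA1 and PDF1.2, and only PDF1.2 was dim in the control. It was no member, with 23.9, 12.8 and 16.2 units in line 348, 23.2, 30.1 and 30.9 in line 409, and 12.9, 18.7 and 20.2 in the control.

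The 6 members that passed a filter on dim probe sets, which asked for 3 or more of the 9 arrays above their 40th percentile, are given next. Since the mutant arrays carried them past it, their count supports nothing. The filter passed 10.0% of the members and 12.1% of the dim set. AT5G03090 had signals of 39.7, 53.2 and 36.1 in line 348, 26.0, 32.6 and 26.5 in line 409, and 18.6, 22.2 and 9.41 in the control. Its groups stood in the order line 348, line 409, control with no overlap. AT3G44140 had 23.5, 25.8 and 8.07 in line 348, 32.2, 42 and 40.2 in line 409, and 18.0, 15.2 and 19.0 in the control, and line 348 spanned the control range.

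The 4 other members that passed have no gene named. Probe set 266034_at had 25.5, 24.5 and 26.8 units in line 348, 8.95, 13.8 and 12.9 in line 409, and 12.6, 14.6 and 3.02 in the control. Probe set 245484_at had 28.9, 22.6 and 34.1 in line 348, 34.8, 34.8 and 44.4 in line 409, and 21.2, 20.7 and 21.4 in the control. The first was raised in line 348 alone, and the second was ordered line 409, line 348, control without overlap, though line 348 began close above the control. Probe set 247385_at had 15, 23.0 and 26.5 in line 348, 23.1, 34.3 and 23.5 in line 409, and 9.21, 12.8 and 13.6 in the control. Probe set 252444_at had 26.0, 24.8 and 30.9 in line 348, 29.4, 22.5 and 19.9 in line 409, and 14.8, 13.6 and 11.9 in the control. Here both lines lay above the control and overlapped each other.

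The remaining members, all scored between 0.702 and 0.580, had 0.232 to 27.7 units in the mutant lines and 0.153 to 9.38 in the control. Those with 1 gene were AT1G66100, AT4G01760, AT1G62870, AT3G19620 and AT3G10820, scored by line 348, and AT3G28770, AT3G46730, AT5G61260, AT2G27270, AT3G57970, AT1G44030, AT5G65500 and AT3G45320, scored by line 409. AT1G62870 had 19.0, 14.7 and 20.5 in line 348, 24.0, 14.1 and 15 in line 409, and 7.99, 7.34 and 8.00 in the control. The unnamed ones were 252070_at, 264638_at, 251223_at, 247668_at, 250717_at and 257309_at, all scored by line 409.

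The lower limit of the set was not a natural gap. The last 3 members inside were 252444_at, with a score of 0.588, 258770_at (AT3G10820) with 0.585 and 252623_at (AT3G45320) with 0.580. AT3G10820 had 5.98, 6.31 and 4.41 units in line 348, 6.56, 3.68 and 10.7 in line 409, and 0.703, 0.880 and 1.28 in the control. AT3G45320 had 4.2, 9.21 and 2.17 in line 348, 7.52, 5.87 and 7.30 in line 409, and 2.27, 0.405 and 2.27 in the control. The first 3 outside were 267190_at with 0.578, 266736_at with 0.577 and 247784_at with 0.576. Within 0.1 of the lowest score there were 28 members inside and 41 probe sets outside.

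Those 3 outside looked like the members. Probe set 267190_at had 10.8, 7.00 and 5.95 units in line 348, 6.17, 1.09 and 9.36 in line 409, and 2.33, 0.921 and 1.44 in the control. Probe set 266736_at had 19.1, 13.4 and 8.5 in line 348, 0.734, 0.712 and 10.9 in line 409, and 4.05, 3.33 and 0.697 in the control. Probe set 247784_at, of the pseudogene AT5G58810, had 5.38, 5.97 and 1.53 in line 348, 6.73, 8.77 and 9.19 in line 409, and 0.448, 2.87 and 2.66 in the control.

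A linear model was fitted to the 9 arrays with limma, which pools the spread over probe sets, and p-values were adjusted by Benjamini-Hochberg over all probe sets tested. With no filter, so that all 60 members were tested, none was called at an adjusted p under 0.05 in line 348 against the control, where 0.0044% of all 22746 probe sets were called higher. At an unadjusted p under 0.05, 30 of the 60 were higher, against 2.53% of all. In line 409 against the control none of the 60 was called, where 0.00879% of all were called higher, and at an unadjusted p under 0.05, 49 were higher, against 5.26% of all. The rule used these contrasts, so the counts describe the choice and nothing is read from them. The median log2 difference of the members was 0.74 in line 348 and 0.96 in line 409, beside 0.03 and 0.10 over the dim set and 0.00 and 0.02 over all probe sets. In the filtered fit, the 6 members tested gave no call in either line either, where 0.0141% of the 14199 probe sets tested were called higher in each. At an unadjusted p under 0.05, 4 of the 6 were higher in line 348 and 5 in line 409, against 2.61% and 5.38% of those tested. Over the dim probe sets in that fit, the shares were 4.41% and 8.14%. The rule and the filter both picked these 6 by their mutant signals, so nothing is read from these counts either.

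Line 409 was also set against line 348, although the choice of the larger line fixes part of this difference too. Of the 36 members scored by line 409, 21 had all 3 signals of line 409 above all 3 of line 348, where 7.29% of the dim set did. Of the 24 scored by line 348, 8 had all 3 signals of line 348 above all 3 of line 409. Over all 22746 probe sets, a wider base than the dim set, 4.73% did. Of the probe sets dim in line 409, 3.89% did. None of the 60 was called by limma at an adjusted p under 0.05 with no filter, where 0% of all were called higher and 0.0044% lower. At an unadjusted p under 0.05, 19 were higher in line 409 and 8 lower, against 3.86% and 3.24% of all. For AT2G15380 the difference of line 409 minus line 348 was 1.48 on the log2 scale, with an SE of 0.314.

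To see how many probe sets reach such a score in other directions, the lowest member score of 0.580 was applied between all pairs of the 3 groups, each time among the probe sets at or below 30 units in the dimmer group. In line 348 over the control 26 probe sets reached it, and in the control over line 348 it was 12. In line 409 over the control 37 did, and in the control over line 409 it was 26. Between the mutants, 33 reached it in line 409 over line 348 and 21 in line 348 over line 409. The top member scored 1.30, against 1.72 for a probe set dim in line 348 and raised in the control, the highest score in any of the 6 directions. Scores of this size were therefore found in every direction, and more of them ran from the control up to each mutant line than down.

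A looser count also gave more probe sets raised in each mutant line than in the control, and more in line 409 than in line 348. All 3 signals of line 348 lay above all 3 of the control for 6.62% of the 9713 dim probe sets, and the control lay above line 348 for 4.70% of those dim in line 348. For line 409 it was 10.4% above the control, against 4.16% the other way. Line 409 lay above line 348 for 7.70% of those dim in line 348, against 3.89% the other way. The floor of the arrays differed as well. The 20th percentile of all signals was between 4.43 and 5.33 units in line 348, between 4.98 and 6.26 in line 409 and between 4.57 and 4.89 in the control, and its part in these counts was not tested. In RNA of whole plants, more cells that express a transcript and more RNA per cell cannot be told apart.

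**Figure D4:**
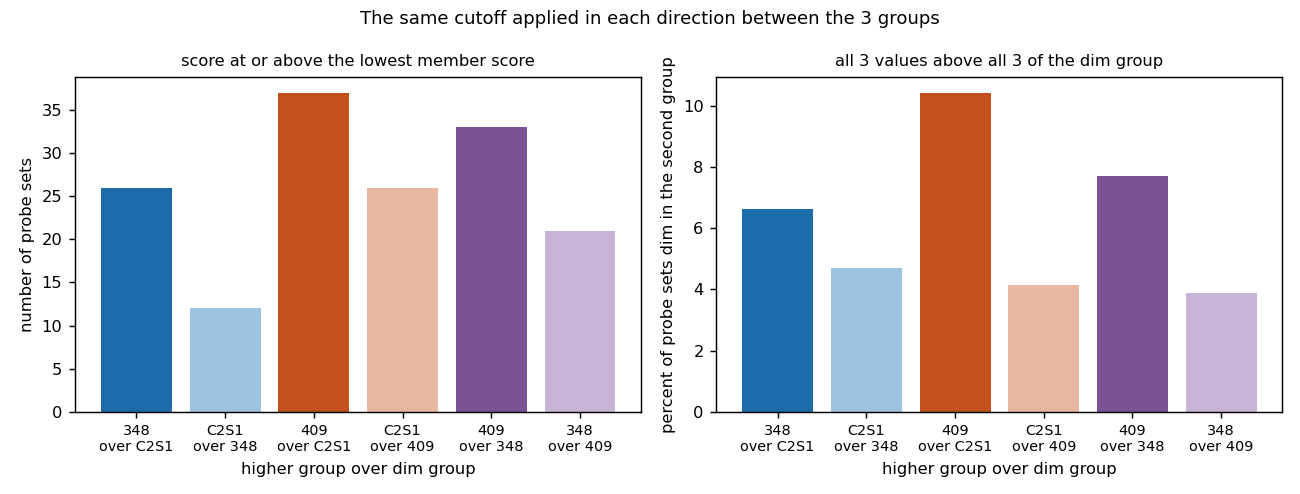
Left, the number of probe sets that reached the lowest member score in each direction between the 3 groups. Right, the percent of probe sets dim in the second group whose 3 values in the first group all lay above it. The bars for line 409 over the control are the highest in both, at 37 probe sets and 10.4%, and every other direction has some.

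The set itself changed when the rule was altered. In each of 15 alternatives, 1 choice was changed and the 60 highest scores were taken again. Ceilings of 20 and 40 units in place of 30 each kept 58 of the 60. An offset of 1 kept 43, an offset of 20 kept 38, quantile normalization kept 47, and group means in place of the extreme arrays kept 30. With 1 array left out, 20 to 35 were kept, and the fewest were kept without control replicate 3. In all 15 alternatives 11 members stayed, of which 5 were scored by line 348 and 6 by line 409, and 32 of the 60 were kept in 7 or fewer of them.

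The 11 that always stayed were those ranked 1 to 10 and 12 by score. Scored by line 348 were AT4G36700, 256176_at, AT1G47465, AT2G01810 and AT5G55360. Scored by line 409 were AT1G48180, 266282_at, AT1G24140, 263395_at, IAA33 and 247515_at. A single pseudogene, AT1G47465, was among them, and both members from pseudogene-rich surroundings, AT5G34790 and AT5G29060, were kept in 6 and 5 of the 15.

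**Figure D5:**
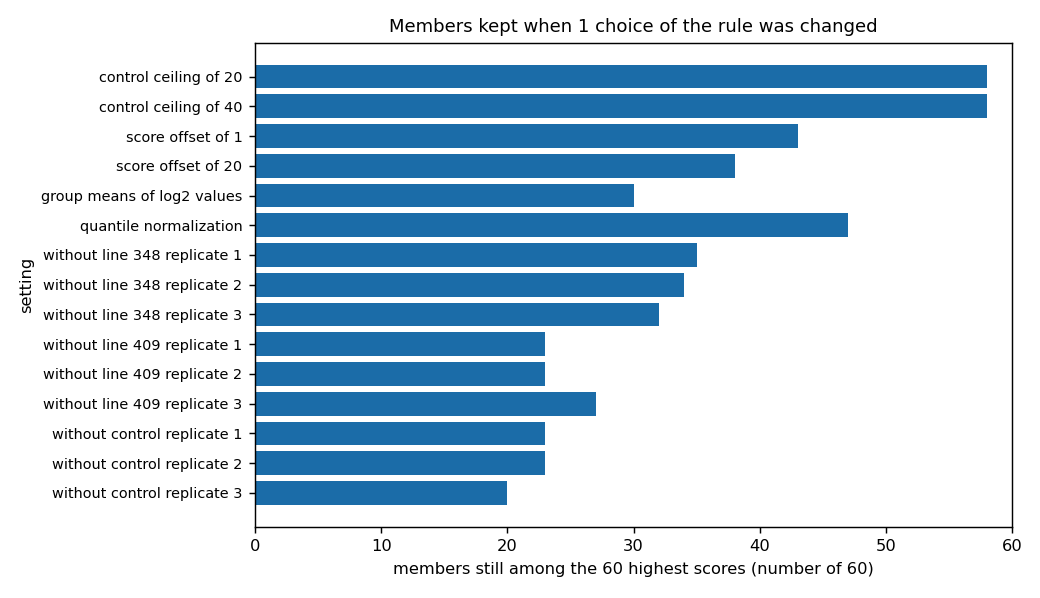
Number of the 60 members that were still among the 60 highest scores after 1 choice of the rule was changed, 1 bar for each of the 15 settings. The ceiling moved 2 members at most, while leaving out an array kept 20 to 35.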

How the data were processed

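Each RNA sample was read on its own Affymetrix ATH1 array. The authors deposited linear MAS5 signals, an intensity, from GCOS per the submitters' processing notes, with versions not given in the sources used here. Their 2% trimmed mean was 100.0 on every array, so the authors' scaling was kept. Control probe sets, 64 in number, were left out. Of the other 22746, 13513 had 1 gene, 503 several and 8730 none in the probe annotation, which was joined by gene identifier to the RefSeq table of assembly TAIR10.1. Position was read as chromosome and order of genes, in place of the planned distance to centromere windows.

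The members and lists were chosen with earlier results of these data known. Members described with signals on every array were, by rule, the 15 highest scores of each line, all pseudogenes, all genes with a symbol, the 10 highest members above the control in both lines and those beside the limit. The members that passed the filter, AT1G62870, QQS and PDF1.2 were added after their values were seen. Classes by words in product names were not made, since the tables hold none.

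Signals plus 4.98, the median 20th percentile, were put on the log2 scale and fitted in R 4.3.3 with limma 3.58.1 with an intensity trend, over 9 arrays and 14199 filtered or all 22746 probe sets. The fit was tested on simulated data. Titles share replicate numbers, but same-numbered arrays deviated with correlations of -0.12 to 0.19, so no block was used. Precision is limited by the number of arrays. The counts in each direction between groups were added after results had been seen.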

Additional observations from a re-analysis of the deposited data

Results flagged for a closer look

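Probe set 251223_at, which has no gene named, had its 2 mutant lines on opposite sides of the control. Its signals were 0.573, 0.615 and 0.473 in line 348, with a mean of 0.554, and 6.39, 8.11 and 6.60 in line 409, with a mean of 7.03, against 1.04, 1.23 and 2.19 in the control. All arrays of line 409 lay above the control and all of line 348 below it. The signals of line 348 and of the control were under the 20th percentile of their arrays, at 4.43 to 5.33 and 4.57 to 4.89 units. With both at the floor, no lower expression in line 348 is read from this. In limma with no filter, line 409 minus line 348 was 1.11 on the log2 scale, with an SE of 0.203 and an adjusted p of 0.42. Line 348 minus the control was -0.22, with an SE of 0.203 and an adjusted p of 0.986, so neither difference passed, and the choice of the member by its height in line 409 fixes part of the first.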

How the results depend on the processing

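Both the members and the counts around them changed with the settings. An offset of 20 kept 38 of the 60 and group means kept 30, and 20 to 35 were kept with 1 array left out, fewest without control replicate 3. By construction, leaving out an array also removes a value that the rule requires to be high or low. Line 409 gave the score of 15 to 54 members with 1 array left out, against 36, and of 20, 18 and 15 without line 348 replicates 1, 2 and 3. Pseudogenes were 5, 8 with group means and 3 to 13 with 1 array left out, where the 13 came without line 409 replicate 2. No member's score turned to 0 or below, but the rule fixes this in advance in every setting except quantile normalization, so nothing is read from it. Limma called none of the members it tested. These were all 60 with no filter, 0 with the filter at the 60th percentile and 5 or 6 in the other settings.

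Over all probe sets, limma called 3 in line 348 against the control, but 1 without the intensity trend, 6 with only the 6 arrays compared, 1 with the replicate block and 1 to 24 with 1 array left out. In line 409 against the control it called 6, 8 with the replicate block and 3 to 60 with 1 array left out, and both highest counts came without control replicate 3. Line 409 against line 348 gave 2 calls, 1 with no filter, 1 without the trend, 2 with the replicate block and 1 to 6 with 1 array left out. The cause of these moves was not tested. Signals near the floor limit what the arrays can show.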
